A study of Homo sapiens with 4 samples.

Results

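The cell cycle and mitosis genes described here are 48 named transcripts, 24 that act in G1 and at the start of S phase (G1/S) and 24 that act in G2 and mitosis (G2/M). They were taken by gene symbol. The gene table of 18276 genes held 47 of them, all 24 of the G2/M and 23 of the G1/S genes, and CCNE2 is not analysed here. RNA that came down with an SF3B6 antibody (IP, 2 libraries) was measured beside input RNA (2 libraries) from MDA-MB-231 cells, an established triple-negative breast cancer line. SF3B6 is a small protein of SF3b, the part of the U2 snRNP that sits at the intron branch point during splicing. Cells of all 4 libraries were irradiated once at 400 mJ/cm2 and their RNA was trimmed with micrococcal nuclease, and 5 µg of antibody was used for the pull-down. The libraries of each group are called biological replicates in the series' design text. Libraries from the control IgG antibody that the protocol names are not analysed here. Input was thus the one reference, and RNA that sticks to antibody or beads was not separated from RNA bound to SF3B6.

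Cells enter S phase when cyclin D with CDK4 or CDK6, and then cyclin E with CDK2, inactivate the RB protein and free E2F transcription factors. E2F drives the genes that license replication origins, such as those of the MCM helicase, and that make nucleotides. Later, cyclin B with CDK1 drives mitosis, Polo and Aurora kinases build the spindle, and a checkpoint delays separation until CDC20 and the anaphase-promoting complex are free to act. Many transcripts of both classes rise and fall with the cycle, and MKI67 is widely used to mark dividing cells.

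Promoter letters, which the choice of members did not use, were counted in both classes. RefSeq windows of GRCh38.p14, from 250 bases before to 50 after the start of a gene, were at hand for 38 of the 47 members, 19 in each class, and the first window listed was taken. The CHR motif TTTGAA, an element through which the DREAM complex represses late cell cycle genes, was in 11 of 19 G2/M windows (57.9%), 1 of 19 G1/S windows (5.26%) and 15.4% of 27305 genes, counting both strands. An E2F motif, TTTCGCGC or TTTGGCGC on either strand, was in 2 of 19 G2/M windows (10.5%), 5 of 19 G1/S windows (26.3%) and 1.18% of all genes. CCAAT on either strand, part of the NF-Y site, was in 15 of 19 (78.9%), 11 of 19 (57.9%) and 35.7%. To let both types be seen, the 120 bases before the start are given for 3 G2/M genes and 2 MCM genes, 5′ to 3′ on the gene's strand, with CHR or E2F matches in capitals.
MKI67 (chr10:128126424-128126543, minus strand): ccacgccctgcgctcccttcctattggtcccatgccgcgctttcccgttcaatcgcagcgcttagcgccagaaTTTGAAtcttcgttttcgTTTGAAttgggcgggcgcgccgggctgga
PLK1 (chr16:23678769-23678888, plus strand): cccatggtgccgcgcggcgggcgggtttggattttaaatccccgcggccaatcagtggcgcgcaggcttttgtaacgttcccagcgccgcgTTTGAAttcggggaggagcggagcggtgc
CDC20 (chr1:43358861-43358980, plus strand): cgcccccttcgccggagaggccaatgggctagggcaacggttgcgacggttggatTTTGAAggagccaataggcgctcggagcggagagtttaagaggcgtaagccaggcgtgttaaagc
MCM7 (chr7:100101398-100101517, minus strand): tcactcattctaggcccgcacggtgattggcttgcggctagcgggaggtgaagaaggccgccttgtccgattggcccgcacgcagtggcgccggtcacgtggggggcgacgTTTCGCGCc
MCM6 (chr2:135876444-135876563, minus strand): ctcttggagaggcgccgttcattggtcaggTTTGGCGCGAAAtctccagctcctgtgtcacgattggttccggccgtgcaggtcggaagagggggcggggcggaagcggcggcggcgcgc
MKI67 carries 2 CHR matches, which begin 47 and 29 bases before the start, and the match of PLK1 also begins 29 bases before. In MCM6 the 12 letters TTTGGCGCGAAA hold an E2F match on each strand, and these overlap. A match is a run of letters and not a measured site, and the libraries here, which hold RNA, do not bear on promoter use.

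Of the 47 genes, 20 had enough counts for the edgeR test, and MKI67 alone passed it, lower in IP. The other 19 did not pass. Over all 3668 tested genes, 1.36% were called lower in IP and 2.7% higher, at an adjusted p under 0.05. All 4 libraries were shallow. Counts in genes came to 55492 and 30431 in SF3B6 IP 1 and 2, against 317190 and 519836 in input 1 and 2, and protein-coding genes took 70.8% and 59.9% of them in IP, against 78.1% and 82.9% in input. Summed over a group, the median member had 3 counts in IP and 37 in input. A count of 0 allows up to 3 counts, which is 54.1 and 98.6 counts per 1000000 (CPM) in the IP libraries and 9.46 and 5.77 CPM in the inputs. The line's mesenchymal markers, with a row for 7 of 7 genes, had 184 and 88 IP counts and 1650 and 3028 input counts. AXL gave the most (97 and 46 in IP, 871 and 1537 in input), and SPARC had only 0 and 2 in IP and 0 and 2 in input. Of the 6 markers tested, FN1 (fibronectin) was called lower in IP (log2 fold change -1.63 ± 0.35, edgeR adjusted p = 0.00305). The luminal markers CDH1 and EPCAM had 1 IP count each, against 4 and 6 counts over both inputs, while ERBB2 and KRT18 were counted in all libraries. Blood cell markers had 5 and 1 counts in IP beside 9 and 8 in input, over the 4 of 8 genes with a row. Per library total this was 90.1 and 32.9 CPM in IP, against 28.4 and 15.4 CPM in input, so higher in IP on very few counts. Each IP library held fewer counts than either input, and depth and pull-down cannot be told apart. In addition, the part of the lower protein-coding share in the results was not tested. The contrast is between IP and input RNA of MDA-MB-231 cells, and no groups of cells in different phases were compared. Within a bulk library, fewer cells in a phase and less RNA per cell cannot be told apart.

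To read such small counts, each member's input counts were scaled to the IP libraries (library sizes after TMM normalization, which aligns the bulk of genes). That gives the IP counts expected had IP kept the input share. Members gave fewer counts than expected in 30 cases and more in 17. The 95% interval of observed over expected, an exact interval for counting error alone, held 1 for 45 members and lay below 1 for MKI67 and CENPF. It lay above 1 for 0. Neither split is given here for all genes, so neither shows whether the members differ from other genes. Among the members 9 had 0 IP counts, as did 7819 of all 18276 genes. Only 6 members were expected to give at least 10 IP counts and 34 were expected to give under 5, so for most members moderate differences were not detectable at this depth.

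**Figure D1:**
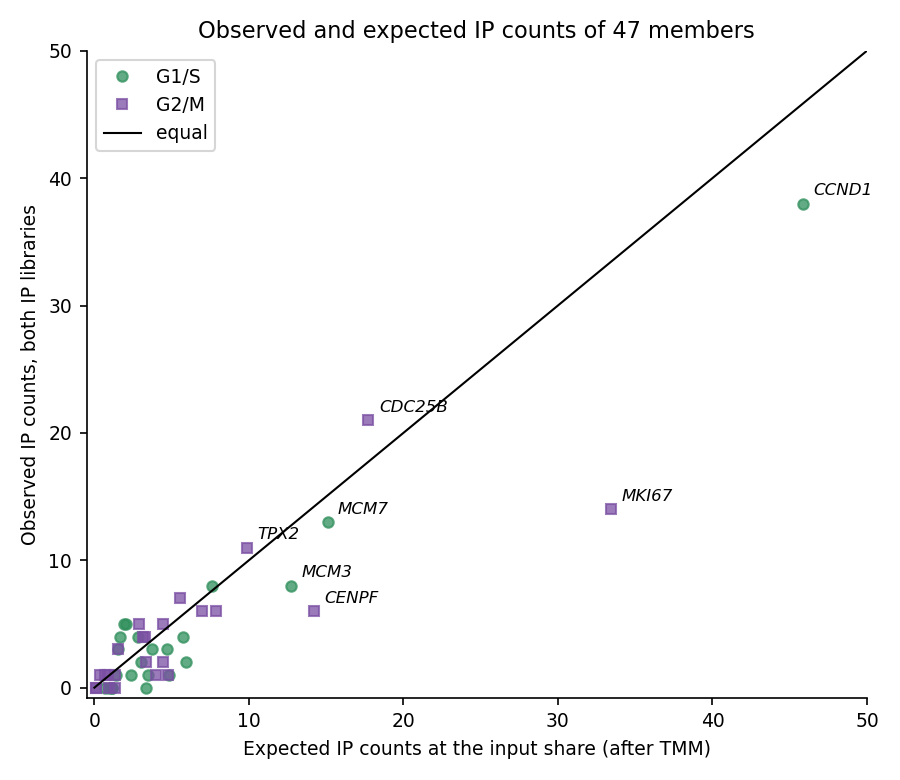
Observed IP counts (both IP libraries summed, vertical axis) against the counts expected at the input share after TMM (horizontal axis) for the 47 members, G1/S as circles and G2/M as squares, with the line of equality. MKI67, with 14 observed and 33.4 expected counts, lies farthest below the line, CCND1 gave 38 against 45.9, and CDC25B gave 21 against 17.7.

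MKI67 encodes Ki-67, a large protein that coats mitotic chromosomes and serves as the standard marker of proliferating cells (ENSG00000148773.14, GRCh38.p14 chromosome 10, 128096659 to 128126423). It had 8 and 6 counts in SF3B6 IP 1 and 2, against 140 and 239 in input 1 and 2. After TMM this was 176 and 261 CPM in IP, against 493 and 487 CPM in input, so both IP libraries lay well below both inputs. The means were 219 ± 60.3 CPM in IP and 490 ± 3.82 CPM in input (SD, n = 2 libraries each). MKI67 fell by 1.25 ± 0.34 on the log2 scale (SE, edgeR's quasi-likelihood test over 3668 genes, adjusted p = 0.0241). It gave 0.419 of the expected counts, with an interval from 0.227 to 0.711. The call was lost with the replicate number as a block (adjusted p = 0.0502), with DESeq2 (0.245), and without SF3B6 IP 1 (0.501), input 1 (0.141) or input 2 (0.230), while the log2 fold change stayed between -1.57 and -1.12 without any 1 library.

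**Figure D2:**
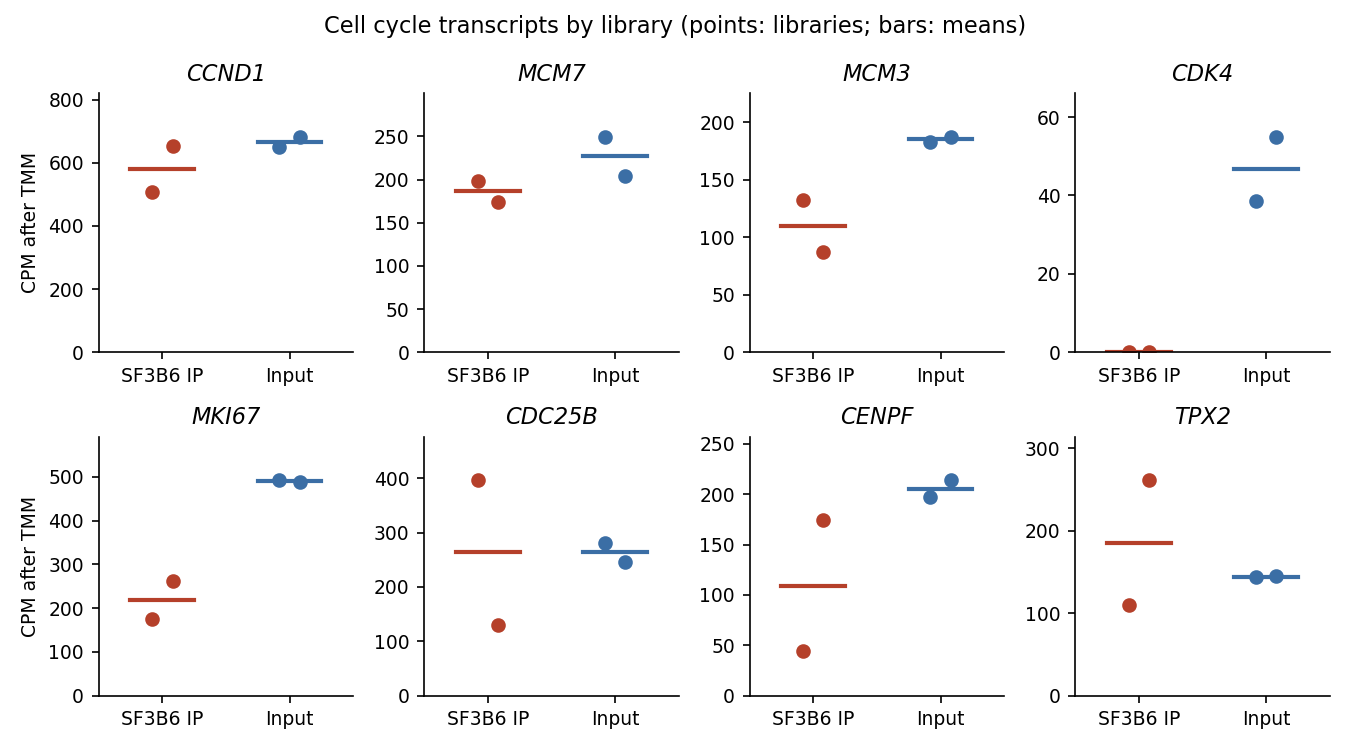
CPM after TMM (vertical axes, each starting at 0) of 8 members in SF3B6 IP (left in each panel) and input (right), with a point for each library and a bar for the mean of 2. MKI67, CENPF, MCM3 and MCM7 lie lower in both IP libraries than in both inputs, CDK4 had 0 IP counts, CCND1 overlaps, and the 2 IP libraries of CDC25B and TPX2 lie on both sides of the inputs.

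CENPF, a large kinetochore and nuclear matrix protein, was the other member whose interval lay below 1. It had 2 and 4 counts in IP, against 56 and 105 in input. That was 44.0 and 174 CPM in IP, against 197 and 214 CPM in input, so SF3B6 IP 2 lay nearer to the inputs than to SF3B6 IP 1. Its log2 fold change of -1.23 ± 0.54 did not pass (edgeR adjusted p = 0.239). CENPF had enough counts for the test in both inputs and in SF3B6 IP 2, but not in SF3B6 IP 1. The fold change was -2.32 without SF3B6 IP 2 and -0.47 without SF3B6 IP 1. The same group, proteins of chromosomes and kinetochores, also holds TOP2A (DNA topoisomerase II), BIRC5 (survivin, of the chromosomal passenger complex) and CENPE (a kinetochore motor). TOP2A had 1 and 1 counts in IP beside 18 and 32 in input, BIRC5 had 1 and 0 against 13 and 32, and CENPE had 1 and 0 against 5 and 10. All 5 genes stood below their expected counts, CENPE only at 1 count against 1.32. The groups by role were chosen with earlier results known, and the sum depends on that choice. AURKB, which acts at centromeres, was placed with the mitotic kinases and gave 1.26 of expected (0.326 to 3.51). Together the 5 gave 13 and 11 counts in IP, against 232 and 418 in input, which was 0.418 of expected (interval 0.266 to 0.628). Without MKI67, a choice made after the values were seen, the share was again 0.418 (0.198 to 0.781). After TMM the sum of the 5 was 286 and 479 CPM in IP, against 816 and 852 CPM in input.

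For the other G2/M groups the interval of observed over expected counts held 1. Of the mitotic kinases, PLK1 drives entry into mitosis, AURKA acts at spindle poles and AURKB at centromeres. The 3 gave 10 and 6 counts in IP, against 59 and 90 in input, 1.22 of expected (0.678 to 2.04). Their log2 fold changes ran from 0.18 to 0.33 with no call. Spindle checkpoint and mitotic exit genes gave 10 and 7 counts in IP beside 69 and 134 in input (0.949 of expected, 0.542 to 1.56). Of these, CDC20, the activator of the anaphase-promoting complex, had 4 and 2 counts in IP beside 26 and 53 in input (log2 fold change -0.21 ± 0.62, edgeR adjusted p = 0.931). UBE2C, the ubiquitin-conjugating enzyme of that complex, had 0 and 2 against 12 and 26. BUB1, a checkpoint kinase, had 4 and 1 against 10 and 23, and PTTG1 (securin) had 2 and 2 against 14 and 23. The checkpoint genes BUB1B and TTK had 0 IP counts, against 15 and 1 in input.

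**Figure D3:**
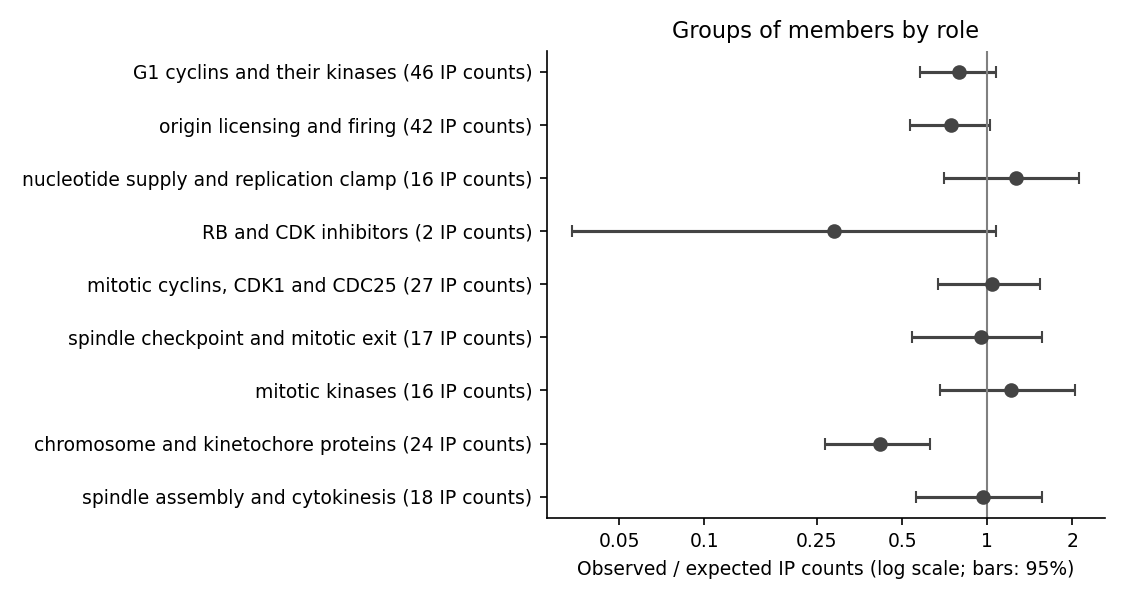
Observed over expected IP counts (log axis) for the 9 groups of members by role, with 95% counting intervals; the IP counts of each group stand beside its name. Chromosome and kinetochore proteins are at 0.418 with an interval below 1, and the intervals of the other 8 groups hold 1.

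Spindle assembly and cytokinesis genes split between the libraries. TPX2, which activates AURKA on spindle microtubules, had 5 and 6 counts in IP, against 41 and 71 in input, or 110 and 261 CPM against 144 and 145 CPM. One IP library lay below both inputs and the other above them (log2 fold change 0.16 ± 0.48, edgeR adjusted p = 0.936). TPX2 stood at -0.090 with library totals as the scale. ASPM, a spindle pole protein, had 3 and 3 counts in IP beside 32 and 57 in input (-0.39 ± 0.60, adjusted p = 0.849). ECT2, which positions the cleavage furrow, had 0 and 1 against 4 and 6, and NUSAP1 had 0 IP counts and 1 input count.

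Among the cyclins and phosphatases that start mitosis, CDC25B, which removes inhibitory phosphates from CDK1, was the best counted. It had 18 and 3 counts in IP, against 80 and 121 in input, that is 396 and 131 CPM in IP, against 281 and 247 CPM in input. The IP libraries thus stood on either side of the inputs, and the log2 fold change was 0.24 ± 0.36 (edgeR adjusted p = 0.836), -0.017 with library totals and -1.21 without SF3B6 IP 1. CCNA2 (cyclin A2) had 0 and 1 counts in IP beside 20 and 34 in input, 0.210 of expected with an interval from 0.00522 to 1.22 (adjusted p = 0.338). CCNB1 (cyclin B1) had 2 and 1 against 5 and 12, CCNB2 had 0 and 0 against 4 and 7, CDK1 had 1 and 0 against 2 and 2, and CDC25C had 1 and 0 against 2 and 6. These counts allow no statement on any of the 4.

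In the G1/S class, CCND1 (cyclin D1, chromosome 11, 69641156 to 69654474) was the most abundant member per length, at 6.38 and 6.29 FPKM in IP, against 18.3 and 27.6 FPKM in input. FPKM takes account of transcript length, and the totals it was scaled by are not stated. CCND1 had 23 and 15 counts in IP, against 185 and 335 in input. After TMM these were 506 and 654 CPM in IP, against 651 and 683 CPM in input, and the groups overlapped. The means were 580 ± 104.1 CPM in IP and 667 ± 22.6 CPM in input (SD, n = 2 each), with a log2 fold change of -0.26 ± 0.24 (edgeR adjusted p = 0.657). Its count was 0.828 of expected, with an interval from 0.579 to 1.15, which bounds any change more tightly than for other members.

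The kinases that partner G1 cyclins were thinly counted. CDK4 had 0 IP counts, against 11 and 27 in input, where 3.35 IP counts were expected. The interval of its ratio ran from 0 to 1.16 and held 1, so a difference was not detectable at this depth. CDK6 had 3 and 1 counts in IP beside 25 and 40 in input (log2 fold change -0.52 ± 0.72, edgeR adjusted p = 0.820). CDK2 had 4 and 0 against 5 and 14, and CCNE1 (cyclin E1) had 0 and 0 against 6 and 7. RB1 and the CDK inhibitors CDKN1A (p21) and CDKN1B (p27), the brakes on S phase entry, gave 1 and 1 counts in IP, against 29 and 50 in input. That was 0.287 of expected with an interval from 0.0342 to 1.07, and none of the 3 had enough counts to be tested.

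Origin licensing and firing genes had a low count in 1 IP library. The 6 MCM genes, whose products form the ring helicase loaded at origins, gave 27 and 7 counts in IP, against 207 and 318 in input. As CPM after TMM this was 595 and 305 in IP, against 728 and 648 in input, so both IP libraries lay lower, SF3B6 IP 2 by more. The sum was 0.734 of expected (0.503 to 1.04). MCM7 (9 and 4 counts in IP, 71 and 100 in input) had a log2 fold change of -0.22 ± 0.41 (edgeR adjusted p = 0.882). MCM3 (6 and 2 in IP, 52 and 92 in input) was at -0.66 ± 0.49 (0.548), MCM2 (3 and 0, 24 and 29) at -0.64 ± 0.86 (0.813) and MCM4 (7 and 1, 37 and 49) at 0.08 ± 0.57 (0.975). MCM5 had 1 and 0 counts in IP beside 15 and 40 in input, and MCM6 had 1 and 0 against 8 and 8. The loading factor CDC6 had 0 and 2 counts in IP beside 9 and 25 in input. CDT1, its partner in loading, had 3 and 0 in IP beside 10 and 32 in input. CDC45, which joins the active helicase, had 3 and 0 against 5 and 12, while ORC1 and GINS2 had 0 IP counts against 11 and 8 in input.

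Nucleotide supply genes and the replication clamp gave 12 and 4 counts in IP, against 56 and 88 in input (1.26 of expected, 0.701 to 2.12), and their members went apart. PCNA, the sliding clamp, had 3 and 2 counts in IP, against 7 and 15 in input, or 66.1 and 87.1 CPM in IP, against 24.6 and 30.6 CPM in input. Its log2 fold change of 1.36 ± 0.75 did not pass (edgeR adjusted p = 0.381), and it entered the test through the IP libraries alone, so a positive value was built in. RRM2, the ribonucleotide reductase subunit made in S phase, had 2 and 0 counts in IP, against 25 and 42 in input, 0.338 of expected with an interval from 0.0401 to 1.27 (adjusted p = 0.405). The partner subunit RRM1 had 4 and 1 against 11 and 12, and TYMS (thymidylate synthase) had 3 and 1 against 13 and 19. PCNA, RRM2 and CCNA2 were singled out after their values were seen.

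**Figure D4:**
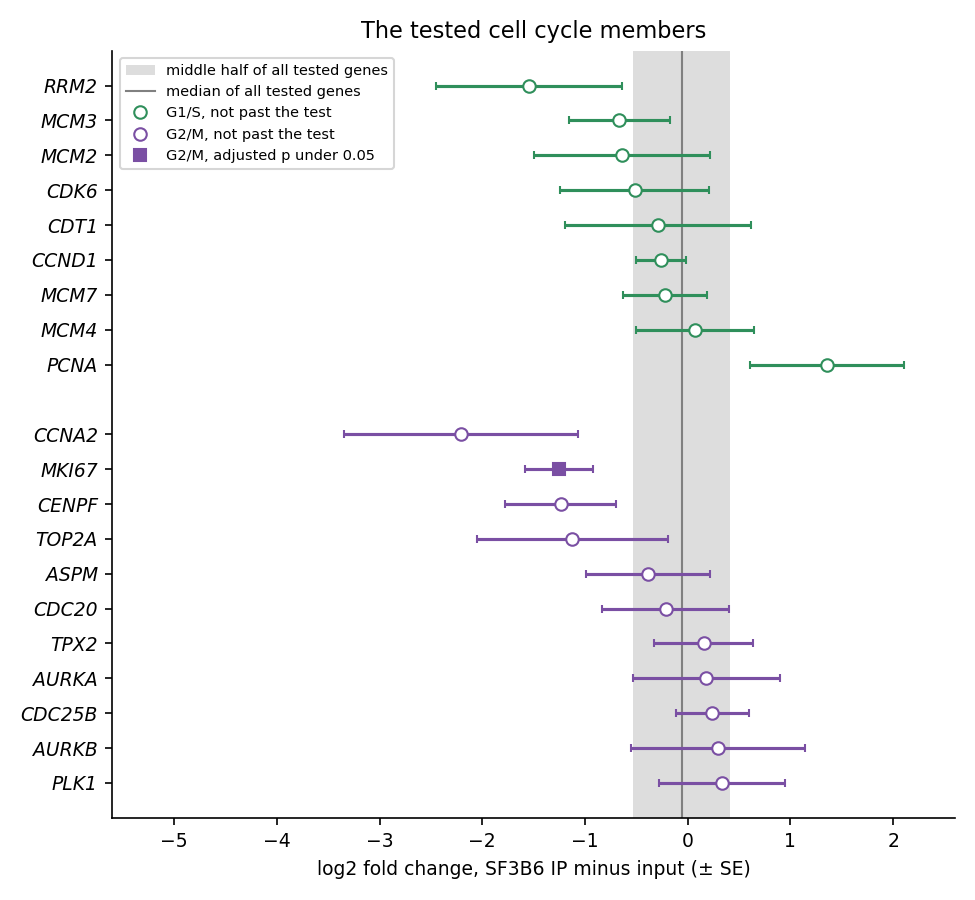
Log2 fold changes, SF3B6 IP minus input, with SE (horizontal axis), of the 9 G1/S and 11 G2/M members that could be tested. The grey band runs from the lower to the upper quartile of all 3668 tested genes (-0.53 to 0.41), the filled square is MKI67 at -1.25, and the open circles did not pass.

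The filter on low counts left 20 members, 9 G1/S and 11 G2/M. A negative log2 fold change was seen for 13 of them, and for 1960 of all 3668 tested genes. Of the 20, 9 passed the filter in all 4 libraries. Another 7 passed in both inputs and in at most 1 IP library (CDK6, MCM2, MCM4, RRM2, CCNA2, TOP2A and CENPF). PCNA passed through IP alone and 3 passed by other mixes. The direction of the members is thus in part set by the filter. Both IP libraries lay below both inputs for 9 and above for 2, where 28.5% of all tested genes lay below and 20.9% above. The test called 0 of 9 G1/S genes (0 at unadjusted p under 0.05) and 1 of 11 G2/M genes (2 at unadjusted p under 0.05). Among all 3668 tested genes, 574 had an unadjusted p under 0.05 in the same edgeR test. The calls depend on the scale between IP and input. Of all called genes, 66.4% were higher with TMM, 49.3% with upper quartile scaling and 38.4% with library totals. With the library totals that the FPKM values imply, 17 of the 3668 tested genes were called higher and 2098 lower. The lower ones held 14 of the 20 tested members. The median log2 fold change was -0.29 for G1/S and -0.21 for G2/M members, and -0.06 over all tested genes. The 27 members that did not pass the filter gave 41 counts in IP where 51.2 were expected, and 9 members had 0 IP counts, with 1 to 38 input counts.

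Summed over a class, the transcripts held a smaller part of the IP libraries than of the inputs. G1/S genes gave 76 and 30 counts in IP, against 552 and 963 in input, which after TMM is 1673 and 1307 CPM in IP, against 1942 and 1963 CPM in input. G2/M genes gave 63 and 39 counts in IP, against 551 and 958 in input, that is 1387 and 1699 CPM in IP, against 1939 and 1953 CPM in input. In both classes the inputs matched closely, and both IP libraries lay lower. Observed counts were 0.793 of expected for G1/S (0.645 to 0.966) and 0.766 for G2/M (0.621 to 0.937), while all protein-coding genes together were at 0.961. A low sum was also seen in some lists of other genes, but not in all. The mesenchymal markers stood at 0.659 of expected (0.581 to 0.745). The luminal markers were at 0.741 (0.508 to 1.05), an interval that holds 1. Genes of the anaphase-promoting complex and its partners were at 1.197 (0.948 to 1.49), which also holds 1. Blood cell markers were at 4.00 (1.29 to 10.6), on 6 IP counts. Without MKI67 the G2/M sum was 0.883 of expected (0.702 to 1.10), and without CCND1 the G1/S sum was 0.775 (0.597 to 0.991). MKI67 made up 33.1% of the 58.8 counts by which the members together fell short. With protein-coding counts alone as the total, the members held 3539 and 3785 CPM in IP, against 4454 and 4460 CPM in input. These sums carry no test, since a sum over chosen members has no p here.

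**Figure D5:**
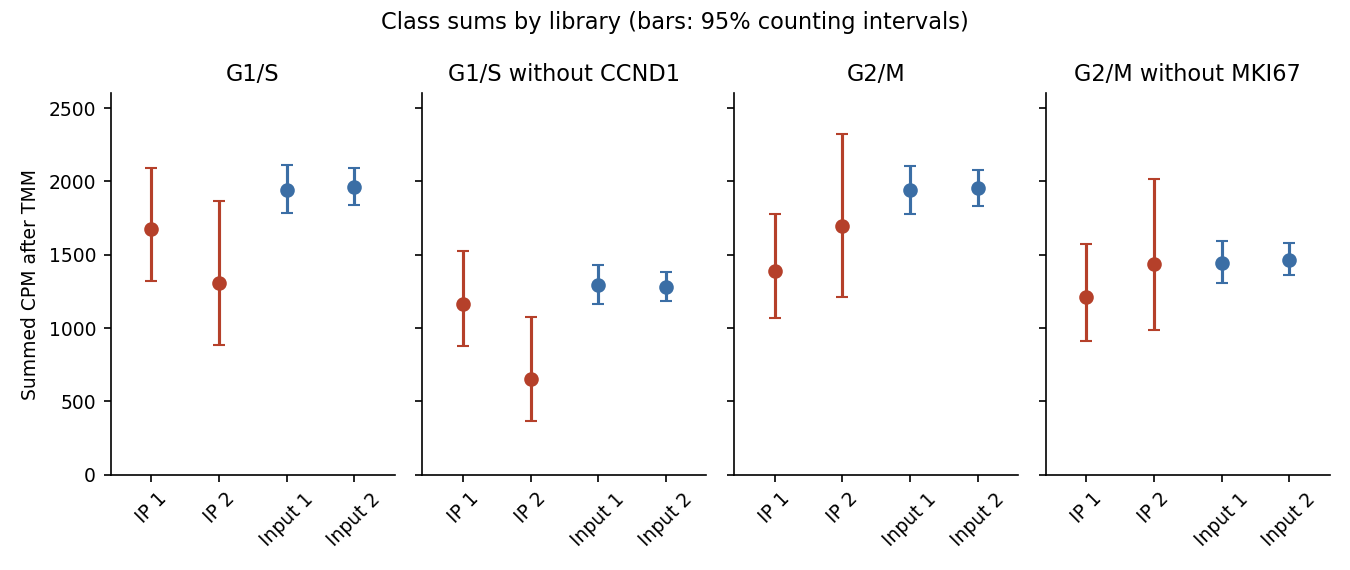
Summed CPM after TMM (vertical axis, from 0) of G1/S and G2/M members in each library, with 95% Poisson intervals for counting error, and the same sums without the best counted member of each class. The IP points lie below the input points in all 4 panels, and in the panel without MKI67 the second IP library, at 1438 CPM, is next to the inputs at 1446 and 1466.

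The balance of the classes was compared next. The ratio of G2/M to G1/S counts within a library, which needs no scaling between libraries, was 0.829 and 1.30 in IP, against 0.998 and 0.995 in input. The IP libraries fell on both sides of the inputs. As a share, G2/M made up 45.3% (exact interval 36.9% to 54.0%) and 56.5% (44.0% to 68.4%) of member counts in IP, against 50.0% (46.96% to 52.9%) and 49.9% (47.6% to 52.1%) in input. Within G2/M, MKI67 held 12.7% and 15.4% of the counts in IP, against 25.4% and 24.9% in input. CCND1 held 30.3% and 50.0% of G1/S counts in IP, against 33.5% and 34.8% in input. The 6 tested G2/M members with a CHR match ranged from -1.25 to 0.33 on the log2 scale, and the 3 with a window and no match from -2.21 to 0.29, so the ranges overlapped.

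Further genes of the same processes were counted in the same way, beside 574 of all 3668 tested genes with an unadjusted edgeR p under 0.05. Of 59 other G1/S genes 57 had a row and 15 were tested, with 0 called (edgeR; 0 at unadjusted p under 0.05), and their sum was 0.990 of expected (0.846 to 1.15). Of 67 other G2/M genes 65 had a row and 22 were tested, with 0 called (2 at unadjusted p under 0.05, KIF11 and ANLN, named after their values were seen) and a sum at 0.920 (0.815 to 1.04). Cohesin and condensin genes, whose products hold and compact chromosomes, were at 0.870 (0.680 to 1.10) with 8 tested and 0 called (0 at unadjusted p under 0.05). Genes of the anaphase-promoting complex and its partners had a sum at 1.197 of expected (0.948 to 1.49). Of the 6 tested, 1 rose and 2 had an unadjusted p under 0.05. The second of these, UBE2S, a ubiquitin-conjugating enzyme of the complex named after its values were seen, was on the other side at -1.27 ± 0.44 (edgeR adjusted p = 0.113). ANAPC2, the cullin subunit (chromosome 9, 137174784 to 137188560), had 25 and 6 counts in IP, against 55 and 91 in input, with a log2 fold change of 1.26 ± 0.33 (edgeR adjusted p = 0.0193). That call was lost with upper quartile scaling (0.0542), library totals (0.0943), a replicate block (0.0557), no filter (0.495) and DESeq2 (0.231), and without SF3B6 IP 1 (0.941), where the log2 fold change was 0.25, input 1 (0.119) or input 2 (0.245). Its direction turned with FPKM-implied totals (-0.39, adjusted p = 0.513) and with limma on log2(FPKM + 1) (-0.48, adjusted p = 0.398).

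Longer transcripts tended to have lower fold changes among the tested members. The 4 longest by the exonic length that counts and FPKM imply, MKI67 (12838 bases), CDK6 (12271), ASPM (11969) and CENPF (11680), all had negative values. Spearman's correlation of log2 fold change with exonic length was -0.48 over the 20 members, which share libraries and differ in depth, and -0.13 over 3483 tested protein-coding genes. These are descriptions across genes, which are not replicates, and the part of length in the low MKI67 value was not tested.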

How the data were processed

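For 2 SF3B6 IP and 2 input libraries, raw gene-level read counts were deposited, and the authors also deposited FPKM for those genes. Per the submitters' processing notes, HISAT2, HOMER and hg38 were used, without stated roles or versions. How reads were counted, with or without strand, is not given in the sources used. Counts were tested with edgeR 4.0.16 in R 4.3.3 (quasi-likelihood test, TMM, default filter, group as the one term, Benjamini-Hochberg over 3668 genes at 0.05). SE equal the absolute log2 fold change over the square root of F, and the fit was tested on simulated data. Pooled count ratios have exact Clopper-Pearson intervals at 95%, sums have exact Poisson intervals, and both cover counting error only. Library totals behind the FPKM were estimated relative to input 2 from counts over FPKM in genes with at least 20 counts. Their absolute scale was set by the RefSeq lengths of 32 small RNA genes, taken as single exons. The implied exonic lengths rest on the same scale. Gene counts were 7.32% and 6.07% of the estimated totals in IP and 15.0% and 20.4% in input. IP and input have no common absolute scale, so fold changes are relative to other genes. Each library was 1 replicate, since chi-square per degree of freedom between libraries of a group was 2.49 in IP and 1.50 in input, beyond sampling noise. The labels do not say that replicate numbers pair libraries, so no pairing was assumed. Same-numbered deviations correlated at 0.000443, which cannot decide on pairing, since counting error in the IP libraries pulls such a correlation toward 0. Named with values were called members, members with at least 10 IP counts that were tested, the 3 best counted of each class, and members with 0 IP and at least 30 input counts; others are given as counts, and fold changes of further tested members were added after their values were seen. In other lists, called genes were named. The members, lists, rules and tests were chosen with earlier results of these data known. DESeq2 1.42.0 and limma 3.58.1 on log2(FPKM + 1) were alternatives. The cell line entries of the labels differ in the last digit and the titles, which all give MDA-MB-231, were used.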

Additional observations from a re-analysis of the deposited data

How the results depend on the processing

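With totals implied by the FPKM table the median of all tested genes was -1.65. Of 3668 tested genes, 2115 were called (17 higher, 2098 lower), against 149 with TMM, and 14 of 20 tested members were called lower. The class medians were -1.87 (G1/S) and -1.79 (G2/M). The class sums were -1.99 and -1.98 on the log2 scale, against -0.39 and -0.33 with TMM. Limma on log2(FPKM + 1) called 1894 of 5263 tested genes (32 higher, 1862 lower) and 13 of 30 members, all lower. Its class medians were -1.16 and -1.09, beside -1.06 over all genes it tested. Sums of FPKM gave -1.87 and -1.78. With library totals the G2/M sum was -0.57, and higher genes were 38.4% of calls (49.3% with upper quartile scaling, 66.4% with TMM). No paired design is known. A replicate block gave 90 genes and 0 members (1 at unadjusted p under 0.05), and DESeq2 gave 38 genes and 0 of the 7 members with an adjusted p (1 at unadjusted p under 0.05), with no adjusted p for 1849 genes. Leaving out 1 library gave 31 to 164 genes, 0 to 1 members, and medians from -1.23 to -0.14 (G1/S) and from -0.56 to 0.10 (G2/M), over other numbers of tested genes; a lone library was taken to vary like the other group. Without a filter the medians were -1.03 and -0.77 (all genes -1.23), and with at least 50 counts in 2 libraries the G2/M median was -1.03. Signs turned for 4 named genes. PCNA was at -0.23 with FPKM totals and -0.12 with log2(FPKM + 1), ANAPC2 at -0.39 and -0.48, CDC25B at -1.42 and -1.48, and TPX2 at -1.40 and -1.09. CDC25B was also at -0.017 with library totals, -0.24 without a filter and from -1.21 (without SF3B6 IP 1) to 0.51 with 1 library left out. TPX2 was at -0.090 with library totals, -0.32 without a filter and from -0.49 (without SF3B6 IP 2) to 0.64 with 1 library left out. The cause of these shifts was not tested. On the log2 scale the ratio of G2/M to G1/S sums, IP against input, was 0.059, and from -0.27 to 0.42 over the 6 alternatives. Each moved it by less than the spread between libraries, 0.46. For those that leave out 1 library this was fixed in advance, since the spread comes from the same libraries. The share of protein-coding counts as a scale was added after the data were seen and moved each class sum by less than its spread between libraries.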
